A study of Mus musculus with 12 samples.

Results

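The subject is a set of 10 genes with more RNA in H2A.Z double-knockout (dKO) than in control (WT) mouse muscle, followed across innervated and denervated legs. They are Casr, Gins1, Gen1, Rnaseh2b, Msh3, Thg1l, Tiam1, Ralgps1, Mfsd4 and Fam55c, 10 of the 31057 genes in the table of counts. They were picked by symbol because they are higher in dKO than in WT muscle in these same libraries, so the dKO to WT differences of the 10 genes are given as a description without a test. All 10 were among the 17201 genes with enough reads to be tested.

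RNA was sequenced from tibialis anterior muscle of C57BL/6 mice aged 7 weeks, in 12 libraries that form 4 groups of 3. WT animals are labelled H2A-Z.1flox/flox for one gene, H2A-Z.2 flox/flox for the other, and HSA Cre WT, read here as floxed alleles with no Cre transgene. The dKO animals are labelled H2A-Z.1-/-, H2A-Z.2-/- and HSA Cre+. HSA is the human skeletal actin promoter, which drives Cre in muscle fibres, so other cells of the muscle keep both genes. Every animal had its left sciatic nerve cut under ketamine and xylazine 48 h before the muscle was taken (denervated), and its right leg, which had no surgery, served as the innervated control, so that the operation, the side of the body and the loss of the nerve cannot be told apart.

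H2A.Z is a variant of histone H2A that sits in nucleosomes beside transcription start sites, and mice make it from H2afz (H2A-Z.1) and H2afv (H2A-Z.2). The 10 genes come from several pathways. Gins1, Gen1, Rnaseh2b and Msh3 encode proteins of DNA replication and repair, activities known mostly from dividing cells, whereas muscle fibre nuclei no longer divide. Thg1l acts on a transfer RNA, Casr is a receptor, Tiam1 and Ralgps1 switch on small GTPases, and Mfsd4 and Fam55c are less well characterised. Denervation of a muscle removes the electrical activity that sets much of its gene expression, and the fibres then shrink and rebuild their synaptic membrane.

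Library totals ran from 55668606 to 87753152 counts. The 3 counts taken as the floor of detection correspond to 0.0342 to 0.0539 counts per 1000000 of these totals, before scaling. CPM values of genes are counts per 1000000 scaled between libraries by TMM. H2afv was at 5.67 ± 0.534 CPM in dKO and 22.1 ± 3.17 CPM in WT innervated legs, and at 5.0 ± 0.35 and 20.7 ± 1.56 CPM in denervated legs (SD, n = 3), and passed in both (log2 −1.96 and −2.05, edgeR adjusted p = 8.89e-06 and 5.23e-06). H2afz was at 8.39 ± 1.60 and 13.5 ± 2.38 CPM in innervated legs, a log2 difference of −0.69 that did not pass (edgeR adjusted p = 0.175). The fibre markers Acta1, Ckm and 11 others together took 292000 to 363000 CPM in WT and 304000 to 308000 CPM in dKO innervated legs. The correlation of a library's deviation from its group with the GC content of genes was lowest in WT_denervated 2 (−0.523) and dKO_innervated 1 (−0.381) and lay between −0.202 and 0.348 in the other libraries. The denervation responses of the 10 genes, the counts of neighbours called and the calls of Pole, Rpp40, Pak1 and Tiam2 between genotypes were also obtained without these 2 libraries. In a bulk sample, more cells of a type and more RNA per cell cannot be told apart.

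Promoters of 3 of the genes are shown first, because the genes differ in the DNA around their starts and 1 of them, Gen1, shares that DNA with a gene read in the other direction. The sequences are from RefSeq on GRCm38.p6 and run 5′ to 3′ on the strand of the gene, from 250 bases before its start to 50 bases after it. Capitals mark GC boxes (GGGCGG or its reverse complement CCGCCC), the motif bound by factors of the Sp family. All 3 genes lie on the minus strand, Casr at chr16:36562085-36562384, Gen1 at chr12:11265758-11266057 and Fam55c at chr16:55895230-55895529.
Casr: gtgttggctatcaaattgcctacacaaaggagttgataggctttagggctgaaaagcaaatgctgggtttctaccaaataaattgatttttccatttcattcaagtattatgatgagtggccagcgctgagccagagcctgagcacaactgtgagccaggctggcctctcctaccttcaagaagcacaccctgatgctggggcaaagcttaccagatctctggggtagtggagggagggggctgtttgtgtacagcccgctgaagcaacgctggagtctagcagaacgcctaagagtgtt
Gen1: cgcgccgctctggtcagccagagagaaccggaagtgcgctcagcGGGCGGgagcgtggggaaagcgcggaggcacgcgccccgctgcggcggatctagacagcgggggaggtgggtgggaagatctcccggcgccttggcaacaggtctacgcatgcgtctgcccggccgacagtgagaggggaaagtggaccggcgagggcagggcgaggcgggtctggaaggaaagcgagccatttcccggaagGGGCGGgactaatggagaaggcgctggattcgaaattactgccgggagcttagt
Fam55c: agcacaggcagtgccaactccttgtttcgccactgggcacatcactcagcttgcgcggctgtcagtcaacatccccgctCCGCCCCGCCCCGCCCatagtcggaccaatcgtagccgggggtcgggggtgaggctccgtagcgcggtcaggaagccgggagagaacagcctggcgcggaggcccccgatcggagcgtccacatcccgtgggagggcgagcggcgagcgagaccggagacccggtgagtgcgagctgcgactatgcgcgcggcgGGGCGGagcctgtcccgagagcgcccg

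The Casr window holds 0 GC boxes and 4 CG dinucleotides, a ratio of observed to expected CG of 0.22. In the Gen1 window there are 2 GC boxes and 32 CG dinucleotides (ratio 1.02), and the annotated start of Smc6 on the other strand lies 85 bases from that of Gen1. The Fam55c window holds 4 GC boxes and 37 CG dinucleotides (ratio 0.989), and its first 3 GC boxes start 5 bases apart, so that they overlap. The median ratio over 32851 promoters of the RefSeq table was 0.384.

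RefSeq windows were found for 8 of the 10 genes, 10 windows in all, since Thg1l and Tiam1 have windows at several starts. A GC box on either strand occurred in 6 of these 10 windows and in 35.7% of all promoters. CCAAT on either strand occurred in 4 windows and in 37.4% of all promoters, CAGCTG in 2 (16.3% of all), TATAAA in 1 (13.6%), and TGACGTCA in 0 (1.79%). CCGGAAGT occurred in 3 windows (3.89% of all), which belong to 2 genes, Gen1 and Thg1l. A match describes these windows and is not a binding site.

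All 10 genes had their 3 dKO values above their 3 WT values in innervated legs, where 8.59% of tested genes are arranged so. In denervated legs 9 of them did, Tiam1 being the exception, against 6.42% of tested genes. An adjusted p below 0.05 for dKO over WT was reached by 8 of them in innervated legs (0.145% of tested genes passed as higher), by 3 in denervated legs (0.0756%) and by 1, Rnaseh2b, in both. These shares restate how the genes were picked and carry no further weight. The median log2 difference of the 10 was 0.78 in innervated and 0.55 in denervated legs, and over all tested genes it was 0.00565 and −0.00278. It was larger in the innervated leg for 8 genes and in the denervated leg for Msh3 and Ralgps1. Whether the 2 legs differ was not tested, since both contrasts chose the genes.

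**Figure D1:**
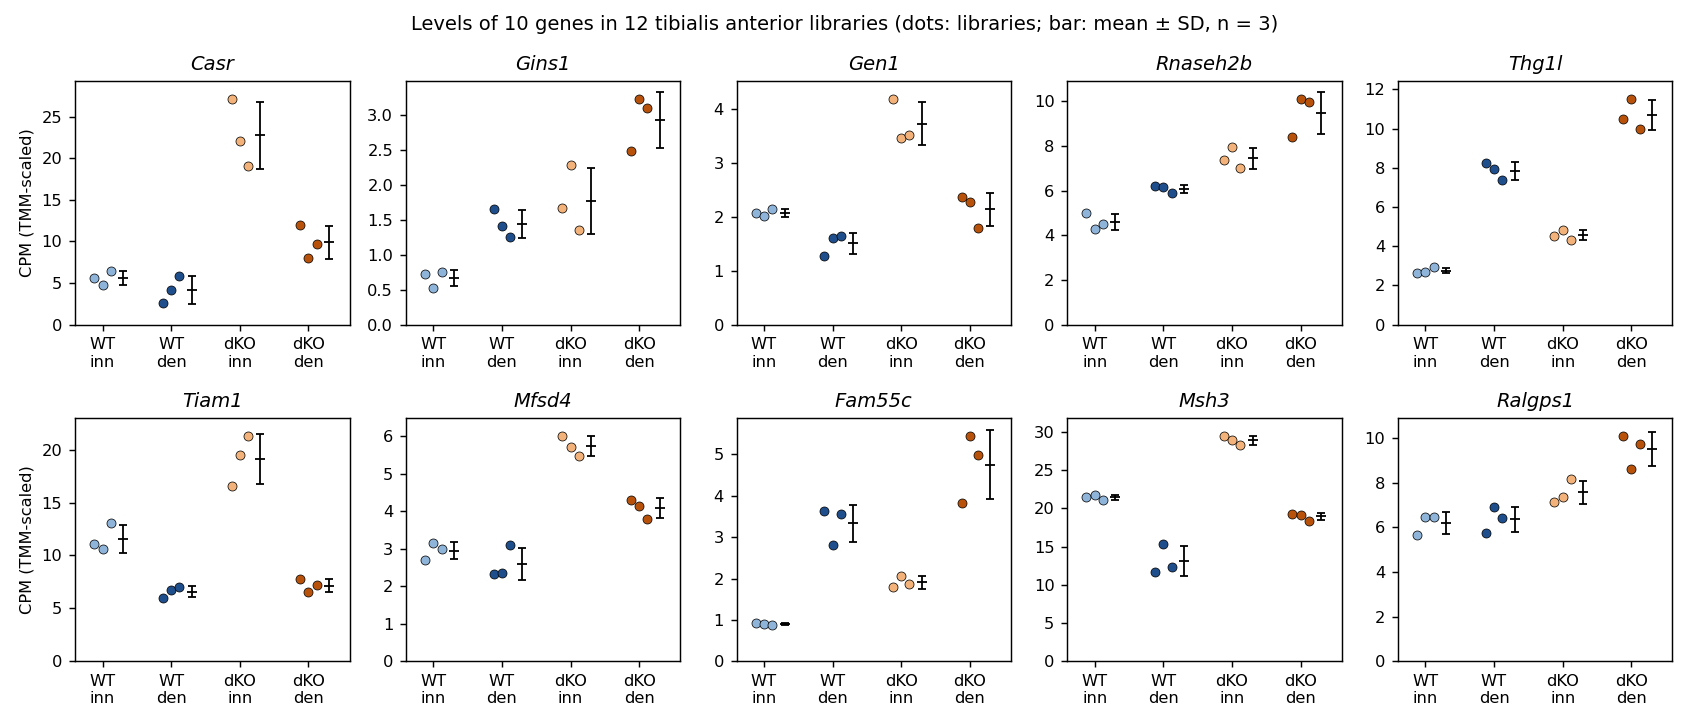
CPM of each gene in the 12 libraries, by genotype (WT, dKO) and leg (inn, innervated; den, denervated); dots are libraries and bars show mean ± SD (n = 3). In innervated legs the 3 dKO dots lie above the 3 WT dots in all 10 panels, and in denervated legs this holds for every gene except Tiam1.

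The response to denervation was not used to pick the genes and was tested as the denervated minus innervated change averaged over WT and dKO. In this balanced layout that estimate does not depend on the difference between genotypes. Its test uses the same spread per gene as the contrasts that chose the genes. A choice of genes with small spread would therefore favour calls here too, which was not tested. By edgeR's quasi-likelihood test with adjustment over all tested genes, 9 of the 10 genes responded, 4 upward (Gins1, Rnaseh2b, Thg1l, Fam55c) and 5 downward (Gen1, Msh3, Casr, Tiam1, Mfsd4). The background is high, since 55.8% of all tested genes passed this test, 28.1% upward and 27.8% downward. The same shares are the background for the gene lists below. Between genotypes 0.459% of tested genes passed in innervated legs and 0.36% in denervated legs. The genes called here moved in both directions when the nerve was cut, as did tested genes at large, so the split is not a trait of the set. In 8 of the 10 genes all 6 pairs of legs with the same genotype and replicate number differed in 1 direction. The share over all tested genes was not obtained for this count, so it is not read as a trait of the 10. The 3 denervated libraries lay outside the range of the 3 innervated ones in 7 of the 10 genes in WT and in all 10 in dKO, where the shares over tested genes were 51.5% and 52.6%. These counts within a genotype use libraries that chose the genes, and nothing is read from them. The 9 calls held in each of the 18 alternative settings, without the 2 libraries with low GC correlation among them. Responses within WT and within dKO are given as values only, because their libraries also entered the choice of genes.

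**Figure D2:**
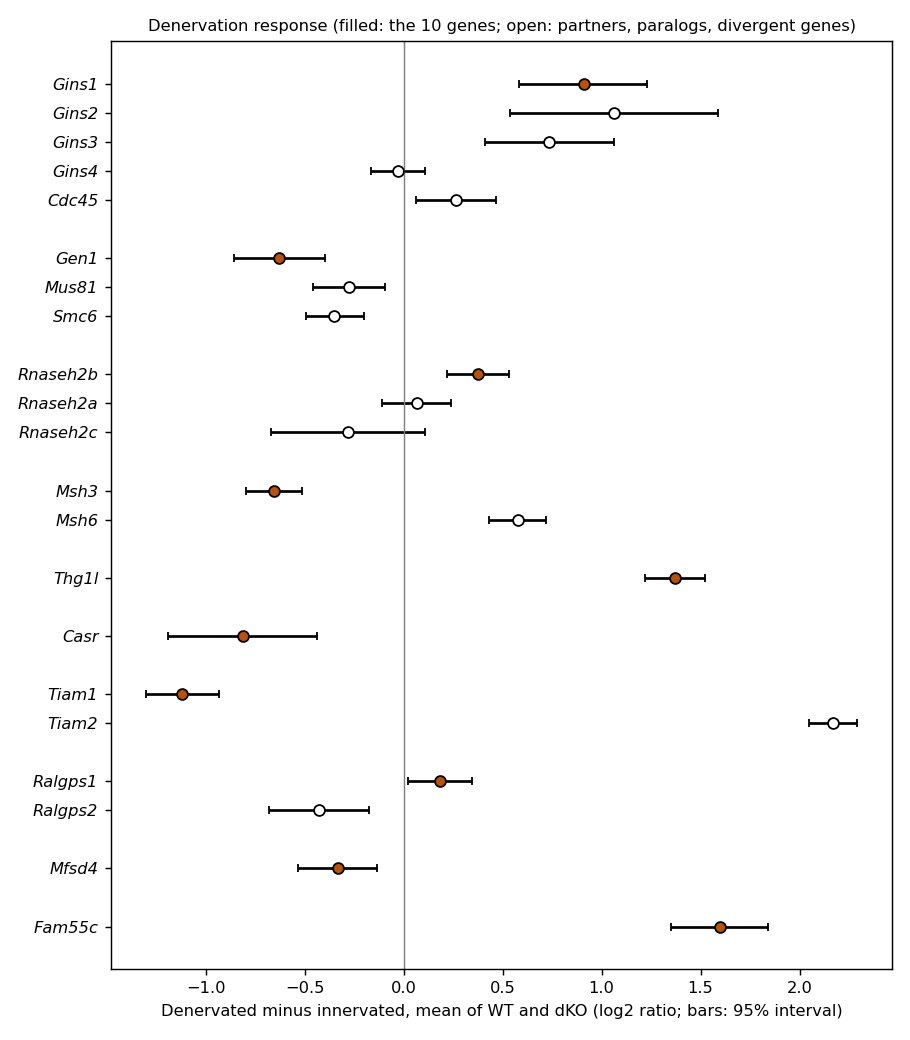
Denervated minus innervated change as a log2 ratio averaged over WT and dKO (horizontal axis), with 95% intervals from edgeR, for the 10 genes (filled) and for their partners, paralogs and divergent genes (open). Of the filled points 5 lie to the right of 0, from Ralgps1 at 0.18 (95% interval 0.02 to 0.344, not past the adjusted threshold) to Fam55c at 1.60, and 5 to the left, down to Tiam1 at −1.12, and Tiam2 stands at 2.17.

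Gins1 (ENSMUSG00000027454, chromosome 2, 150905400 to 150931280, plus strand, GRCm38) encodes a subunit of GINS, which with Cdc45 and the Mcm ring forms the helicase of the replication fork. Gins1 had 54, 29 and 48 counts in the WT legs with an intact nerve and 125, 134 and 102 after the cut, against 111, 154 and 79 (intact) and 180, 229 and 239 (cut) in the dKO legs, each in the order of replicates 1 to 3, as for the genes that follow. Every dKO library lay above every WT library of the same leg, and dKO innervated legs overlapped WT denervated legs. In CPM this is 0.669 ± 0.121, 1.44 ± 0.199, 1.77 ± 0.475 and 2.94 ± 0.402 in the same order of groups. The dKO to WT log2 difference was 1.40 (SE 0.223) in innervated and 1.03 (SE 0.202) in denervated legs. Denervation raised Gins1 by 0.91 on the log2 scale (SE 0.15, edgeR adjusted p = 0.000174), by 1.09 in WT and 0.72 in dKO, and it was higher in 6 of 6 denervated legs than in their innervated partners.

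The other GINS subunits were not called between genotypes. Gins2 stood at 0.03 and −0.10 in the 2 legs (edgeR adjusted p = 0.993 and 0.96), Gins3 at 0.07 and −0.26 (0.95 and 0.774) and Gins4 at −0.00139 and −0.22 (0.999 and 0.411). The 95% intervals in innervated legs were −0.406 to 0.544 for Gins3 and −0.789 to 0.845 for Gins2, which had as few as 9 counts in a library. Cdc45 stood at 0.43 and 0.44 and did not pass after adjustment (edgeR adjusted p = 0.256 and 0.214). Its 95% intervals, which are not adjusted, lay above 0 in innervated (0.141 to 0.719) and denervated legs (0.156 to 0.718). In both legs its dKO libraries lay above its WT libraries, as in 8.59% and 6.42% of tested genes. The interval of Gins4 in denervated legs lay below 0 (−0.412 to −0.0319). After denervation Gins2 (1.06, SE 0.244, edgeR adjusted p = 0.00218), Gins3 (0.73, SE 0.15, 0.000918) and Cdc45 (0.26, 0.0287) rose as Gins1 did, and Gins4 was at −0.03 (0.719).

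On the list of replication fork genes, 1 of 32 members other than Gins1 passed between genotypes in innervated legs, against 0.459% of tested genes, and 0 in denervated legs, against 0.36%. That gene was Pole, the catalytic subunit of the leading-strand polymerase, higher in dKO innervated legs (0.59, SE 0.097, edgeR adjusted p = 0.0152). In denervated legs it was at 0.33 and did not pass (edgeR adjusted p = 0.212). Its CPM were 6.62, 5.88 and 5.94 in WT and 9.15, 9.44 and 9.23 in dKO innervated libraries, without overlap. Its call was lost in 6 of 18 alternatives, with an adjusted p of up to 0.1: without WT_innervated 2 (0.0909) or 3 (0.1), without dKO_innervated 1 (0.0615), 2 (0.0834) or 3 (0.0574), and without the 2 libraries with low GC correlation (0.0503). The median of the list was 0.11 in innervated and −0.02 in denervated legs, and denervation raised 14 and lowered 4 of the 32.

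Proliferation markers (Mki67, Top2a and 15 others) summed to 17.2 to 24.1 CPM in WT and 23.5 to 25.5 CPM in dKO innervated legs, and to 24.2 to 30.4 and 25.1 to 29.1 CPM in denervated legs. Of the 17, 0 passed between genotypes in either leg, and denervation raised 7 and lowered 1. The dKO to WT difference stood above 0 for 14 of the 17 in innervated legs (median 0.092) and for 4 in denervated legs (median −0.223). The part of proliferating cells in the level of Gins1 was not tested.

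Gen1 (ENSMUSG00000051235, chromosome 12, 11238920 to 11265801, minus strand) encodes a nuclease that cuts Holliday junctions, the crossed DNA strands left by recombination. Gen1 had 155, 110 and 137 counts in the WT legs with an intact nerve and 97, 153 and 133 after the cut, against 279, 233 and 205 (intact) and 172, 161 and 139 (cut) in the dKO legs. The highest group was dKO innervated at 3.73 ± 0.401 CPM, against 2.08 ± 0.0697 in WT innervated, 1.51 ± 0.198 in WT denervated and 2.15 ± 0.302 in dKO denervated legs. Its difference between genotypes was 0.84 (SE 0.149) and 0.50 (SE 0.151) in innervated and denervated legs. Gen1 fell with denervation (−0.63, SE 0.106, edgeR adjusted p = 0.000205), in 6 of 6 pairs of legs, by 0.46 in WT and 0.80 in dKO.

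Smc6, the divergent gene whose start lies 85 bases away, encodes a subunit of the Smc5/6 complex of DNA repair. Its levels were 46.8 ± 1.56 CPM in WT and 48.6 ± 3.03 CPM in dKO innervated legs, and 38.7 ± 5.87 and 36.2 ± 0.753 CPM in denervated legs. The genotypes overlap in both legs, and the log2 differences were 0.05 (95% interval −0.152 to 0.262, edgeR adjusted p = 0.889) and −0.10 (−0.304 to 0.11, 0.833). With denervation Smc6 fell as Gen1 did (−0.35, SE 0.0677, edgeR adjusted p = 0.000624). Mus81, the catalytic subunit of another junction nuclease, was at −0.08 and −0.11 between genotypes (edgeR adjusted p = 0.863 and 0.858) and fell by 0.28 with denervation (0.0131). Of 22 other genes for junction processing and homologous recombination, 0 passed between genotypes in either leg (median 0.0839 and −0.0514), and denervation raised 10 and lowered 5.

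Rnaseh2b (ENSMUSG00000021932, chromosome 14, 62292589 to 62372992, plus strand) encodes an accessory subunit of RNase H2, the enzyme that removes ribonucleotides from DNA. In people, mutations in its genes cause the interferon disorder Aicardi-Goutières syndrome. Rnaseh2b had 374, 235 and 287 counts in the WT legs with an intact nerve and 470, 587 and 477 after the cut, against 490, 535 and 407 (intact) and 610, 717 and 767 (cut) in the dKO legs. The groups form 4 separate steps without overlap, at 4.61 ± 0.36, 6.09 ± 0.175, 7.44 ± 0.483 and 9.49 ± 0.947 CPM in the same order. Its dKO to WT difference was nearly equal in the 2 legs, 0.69 (SE 0.105) and 0.64 (SE 0.102). Denervation raised it by 0.38 (SE 0.0732, edgeR adjusted p = 0.00065), in 6 of 6 pairs of legs.

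The other subunits of RNase H2 did not pass in any of these comparisons. Rnaseh2a, the catalytic subunit, was at 0.00718 between genotypes in innervated legs (95% interval −0.241 to 0.256, edgeR adjusted p = 0.995) and at −0.07 in denervated legs (−0.315 to 0.178, 0.92), and at 0.06 after denervation (0.527). Rnaseh2c had wider intervals, −0.608 to 0.493 and −0.389 to 0.713 between genotypes (edgeR adjusted p = 0.966 and 0.918), and stood at −0.28 after denervation (0.207). On the list of RNase H and ribonucleotide removal genes, 0 of 9 others passed between genotypes in either leg (median 0.00718 and −0.0687), and 2 rose and 2 fell with denervation. Exons of Rnaseh2b overlap those of Dleu7 on the other strand by 66 bases in GENCODE M21, and Dleu7 reached at most 13 counts in a library. The strand setting of the counting was not given in the sources used here, so counts over such overlaps are uncertain.

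Msh3 (ENSMUSG00000014850, chromosome 13, 92211872 to 92355003, minus strand) is the subunit particular to MutSβ, the mismatch repair complex that detects small loops in DNA, while Msh6 is a subunit of MutSα, which detects single mismatches. Msh3 had 1606, 1192 and 1342 counts in the WT legs with an intact nerve and 886, 1469 and 1004 after the cut, against 1965, 1948 and 1643 (intact) and 1400, 1364 and 1415 (cut) in the dKO legs. Innervated legs were tightly grouped, at 21.5 ± 0.369 CPM in WT and 28.9 ± 0.622 in dKO, and denervated legs stood lower at 13.2 ± 1.98 and 19.0 ± 0.515 CPM. Genotypes differed by 0.43 (SE 0.093) and 0.52 (SE 0.0936) in innervated and denervated legs. Msh3 fell with denervation (−0.66, SE 0.0661, edgeR adjusted p = 2.08e-06), in 6 of 6 pairs of legs.

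Msh6 rose with denervation (0.57, SE 0.067, edgeR adjusted p = 7.92e-06), opposite to Msh3. It went from 7.03 to 7.29 CPM in WT innervated libraries to 10.4 to 10.9 CPM in WT denervated ones, with no overlap. Between genotypes Msh6 was at 0.17 and 0.16 and did not pass (edgeR adjusted p = 0.553 and 0.629). Of 14 other mismatch repair genes, 0 passed between genotypes in either leg (median 0.12 and 0.0713), and 4 rose and 4 fell with denervation.

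**Figure D3:**
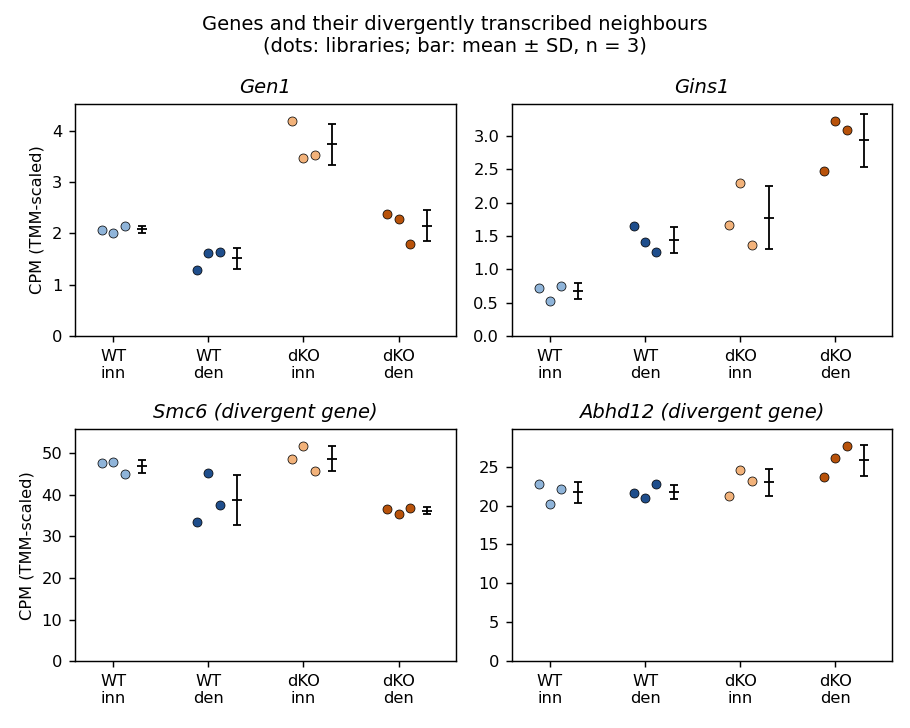
CPM of Gen1 and Gins1 (top row) and of the genes that start within 1000 bases on the other strand, Smc6 and Abhd12 (bottom row); dots are libraries and bars mean ± SD (n = 3). The dKO dots of Gen1 and Gins1 stand above the WT dots in both legs, whereas those of Smc6 overlap. For Abhd12 they overlap in innervated legs and stand above the WT dots in denervated legs. Gen1 and Smc6 have lower means in denervated legs.

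Genes next to the 10 were not picked for their values, and their genotype contrasts could be tested. Taking the nearest protein-coding gene on each side and any gene starting within 1000 bases on the other strand, GENCODE M21 gives 21 such genes, and 14 of these passed the filter on low counts. By edgeR 0 of the 14 passed between genotypes in innervated legs and 0 in denervated legs, and DESeq2 also called 0 in each leg. Since only 0.459% and 0.36% of tested genes passed by edgeR, 0 of 14 was likely in advance. The count therefore does not show that the neighbours are unaffected. An unadjusted edgeR p below 0.05 was reached by 4 and 2 of the 14, and by 1814 and 1683 of the 17201 tested genes. Their median log2 difference was 0.0217 in innervated and 0.0134 in denervated legs, and the lowest in each was that of Ninl, next to Gins1 (−0.55 and −0.44, edgeR adjusted p = 0.23 and 0.358). Abhd12, a lipid hydrolase gene whose start lies 659 bases from that of Gins1, was at 0.08 and 0.25 (edgeR adjusted p = 0.789 and 0.309). Sod1, the cytosolic superoxide dismutase next to Tiam1, was at −0.01 and 0.02 (0.989 and 0.977). Of the genes on either side of Casr, Cd86, a ligand on antigen-presenting cells, stood at 0.36 and 0.13 (0.649 and 0.931), and Stfa3 reached at most 1 count in a library. Denervation changed 8 of the 14, against 55.8% of all tested genes.

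Thg1l (ENSMUSG00000011254, chromosome 11, 45946843 to 45955494, minus strand) encodes the enzyme that adds a guanosine to the front of histidine transfer RNA. Thg1l had 197, 148 and 186 counts in the WT legs with an intact nerve and 623, 755 and 596 after the cut, against 301, 324 and 251 (intact) and 759, 816 and 774 (cut) in the dKO legs. The 4 groups do not overlap, at 2.76 ± 0.149, 7.85 ± 0.446, 4.56 ± 0.252 and 10.7 ± 0.755 CPM in the same order. Denervation raised Thg1l by 1.37 (SE 0.07, edgeR adjusted p = 4.36e-09), 1.51 in WT and 1.23 in dKO, and in 6 of 6 pairs of legs. The dKO to WT difference was 0.72 (SE 0.101) in innervated and 0.44 (SE 0.0947) in denervated legs.

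Of 23 other genes that process the ends of transfer RNAs or charge them with histidine, 1 passed between genotypes in innervated legs and 0 in denervated legs, and denervation raised 14 and lowered 3. The one was Rpp40, a protein subunit of RNase P, the enzyme that trims the front of precursor transfer RNAs. It was higher in dKO innervated legs (0.64, SE 0.0956, edgeR adjusted p = 0.00913), at 12.1, 11.8 and 10.7 CPM against 7.29, 7.6 and 7.26 in WT. The call in innervated legs was lost without WT_innervated 3 (edgeR adjusted p = 0.0572) and without dKO_innervated 2 (0.058). The median of the list was 0.0433 and 0.0333 in the 2 legs.

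Casr (ENSMUSG00000051980, chromosome 16, 36493696 to 36562141, minus strand) encodes the calcium-sensing receptor, a G protein-coupled receptor best known from the parathyroid gland and kidney, where it reads the calcium level outside the cell. It had the widest gap between genotypes of the 10. Casr had 424, 262 and 413 counts in the WT legs with an intact nerve and 194, 394 and 478 after the cut, against 1805, 1483 and 1108 (intact) and 874, 567 and 745 (cut) in the dKO legs. In CPM the dKO innervated libraries stood at 27.1, 22.1 and 19.1 against 5.67, 4.8 and 6.49 in WT, and the denervated ones at 12, 8.0 and 9.67 against 2.57, 4.14 and 5.9. The lowest dKO library of each leg was above the highest WT library. The ratio of dKO to WT was 4.02-fold in innervated (log2 2.01, SE 0.25) and 2.35-fold in denervated legs (1.23, SE 0.248).

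Denervation lowered Casr by 0.81 on average (log2 −0.81, SE 0.174, edgeR adjusted p = 0.0013). The change was −0.43 in WT, where the legs overlap, and −1.20 in dKO, where they do not. Nothing is read from this contrast, since these libraries also chose the gene. The change was downward in 6 of 6 pairs of legs, from −0.14 in WT pair 3 to −1.46 in dKO pair 2. Among 22 other genes of calcium-sensing receptor signalling, such as the G proteins Gnaq and Gna11 and the phospholipases Plcb1 to Plcb4, 0 passed between genotypes in either leg (median −0.0142 and −0.0494), and denervation raised 3 and lowered 11.

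Tiam1 (ENSMUSG00000002489, chromosome 16, 89787111 to 90143769, minus strand) encodes an exchange factor that loads the GTPase Rac with GTP, which drives actin assembly. Tiam1 had 828, 580 and 833 counts in the WT legs with an intact nerve and 453, 645 and 566 after the cut, against 1106, 1309 and 1236 (intact) and 563, 462 and 554 (cut) in the dKO legs. Innervated legs stood apart at 11.6 ± 1.31 CPM in WT and 19.1 ± 2.35 in dKO. Denervated legs overlapped, at 6.59 ± 0.526 and 7.16 ± 0.619 CPM. The difference between genotypes was 0.72 (SE 0.117) in innervated and 0.12 (SE 0.119, 95% interval −0.138 to 0.376) in denervated legs. Tiam1 fell with denervation (−1.12, SE 0.084, edgeR adjusted p = 1.34e-07), by 0.82 in WT and 1.42 in dKO, in 6 of 6 pairs of legs.

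Tiam2, its paralog, rose with denervation (2.17, SE 0.0545, edgeR adjusted p = 9.55e-12), from 6.87 to 7.2 CPM in WT innervated libraries to 27.4 to 29.9 CPM in WT denervated ones. The 2 Rac exchange factors thus moved in opposite directions. Between genotypes Tiam2 was at 0.14 in innervated legs (edgeR adjusted p = 0.549) and higher in dKO denervated legs (0.41, SE 0.0726, 0.0361), a call lost in 9 of 18 alternatives with an adjusted p of up to 0.143. Leaving out any 1 of WT_innervated 1, 2 or 3 (0.0555, 0.0629 and 0.0594), WT_denervated 2 or 3 (0.0741 and 0.138) or dKO_denervated 1, 2 or 3 (0.119, 0.143 and 0.079) ended it, as did leaving out the 2 libraries with low GC correlation (0.0602).

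Of 29 other Rac exchange factors and effectors, 1 passed in innervated legs and 1, Tiam2, in denervated legs, and denervation raised 10 and lowered 4. The gene called in innervated legs was Pak1, a kinase that Rac activates, and it was lower in dKO (−1.12, SE 0.19, edgeR adjusted p = 0.019). Of all tested genes 0.314% passed as lower in that leg. In denervated legs Pak1 was at −0.595 and did not pass (edgeR adjusted p = 0.23). It stood at 8.07, 5.15 and 6.2 CPM in dKO and at 12.2, 15.5 and 14.5 CPM in WT innervated libraries. Its call was lost without WT_innervated 2 (edgeR adjusted p = 0.0909) or 3 (0.0854) and without dKO_innervated 2 (0.104) or 3 (0.0846). Medians of the list were 0.0246 and 0.0304 in innervated and denervated legs.

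Ralgps1 (ENSMUSG00000038831, chromosome 2, 33133417 to 33371486, minus strand) encodes an exchange factor of the Ral GTPases, which direct vesicles to the plasma membrane. Ralgps1 had 422, 354 and 411 counts in the WT legs with an intact nerve and 436, 656 and 518 after the cut, against 476, 496 and 474 (intact) and 730, 612 and 751 (cut) in the dKO legs. The WT legs overlap, at 6.20 ± 0.477 and 6.35 ± 0.563 CPM, and the dKO legs do not, at 7.56 ± 0.528 and 9.48 ± 0.748 CPM. Genotypes differed by 0.29 (SE 0.107) in innervated and 0.58 (SE 0.105) in denervated legs. Ralgps1 was the 1 gene of the 10 that did not pass in the response to denervation (0.18, SE 0.075, edgeR adjusted p = 0.0541). In the fit with a block for the pair of legs it passed (0.18, edgeR adjusted p = 0.0339). It also passed with RLE scaling (edgeR adjusted p = 0.0468), with DESeq2 (0.0458) and without WT_denervated 1 (0.0281), dKO_innervated 3 (0.0419) or dKO_denervated 2 (0.0306), and over all alternatives its adjusted p ran from 0.0281 to 0.347. The estimate was 0.09 with upper-quartile scaling.

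Its paralog Ralgps2 fell with denervation (−0.43, SE 0.116, edgeR adjusted p = 0.00653) and was at −0.04 and −0.27 between genotypes (0.967 and 0.676). Of 13 other Ral exchange factors and effectors, 0 passed between genotypes in either leg (median −0.0535 and −0.115), and 4 rose and 4 fell with denervation.

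Mfsd4 (named Mfsd4a in GENCODE M21; ENSMUSG00000059149, chromosome 1, 132022806 to 132068062, minus strand) belongs by sequence to the major facilitator superfamily of membrane transporters. Mfsd4 had 202, 172 and 190 counts in the WT legs with an intact nerve and 177, 224 and 251 after the cut, against 400, 384 and 318 (intact) and 313, 294 and 293 (cut) in the dKO legs. The genotypes are far apart in both legs, at 2.95 ± 0.226 against 5.73 ± 0.268 CPM and at 2.60 ± 0.435 against 4.09 ± 0.259 CPM, or 0.96 (SE 0.131) and 0.65 (SE 0.13) on the log2 scale. Denervation lowered Mfsd4 (−0.33, SE 0.0919, edgeR adjusted p = 0.00713), in 5 of 6 pairs of legs. The change was −0.18 in WT, where the legs overlap, and −0.49 in dKO, where they do not. Exons of Mfsd4 overlap those of Elk4 on the other strand by 84 bases and those of Gm26892 by 1636 bases. Elk4, an ETS-family transcription factor with up to 11424 counts in a library, rose with denervation (0.89, edgeR adjusted p = 7.49e-08) and was at −0.00452 and −0.10 between genotypes (0.996 and 0.806). Of 15 other Mfsd genes, 0 passed between genotypes in either leg (median −0.153 and −0.0474), and 3 rose and 3 fell with denervation.

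Fam55c (named Nxpe3 in GENCODE M21; ENSMUSG00000075033, chromosome 16, 55839953 to 55895285, minus strand) is related to the neurexophilins, secreted partners of neurexins. Fam55c had 70, 49 and 56 counts in the WT legs with an intact nerve and 274, 268 and 287 after the cut, against 119, 139 and 108 (intact) and 277, 386 and 384 (cut) in the dKO legs. The 4 groups are separate, at 0.905 ± 0.0289, 3.33 ± 0.446, 1.91 ± 0.146 and 4.75 ± 0.84 CPM in the same order. It had the strongest rise of the 10 with denervation (1.60, SE 0.114, edgeR adjusted p = 8.3e-08), 1.87 in WT and 1.32 in dKO, in 6 of 6 pairs of legs. The difference between genotypes was 1.07 (SE 0.17) in innervated and 0.51 (SE 0.149) in denervated legs. Of the 4 other genes of this family that were tested, 0 passed between genotypes or after denervation (median −0.119 and −0.249 between genotypes and −0.174 after denervation).

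**Figure D4:**
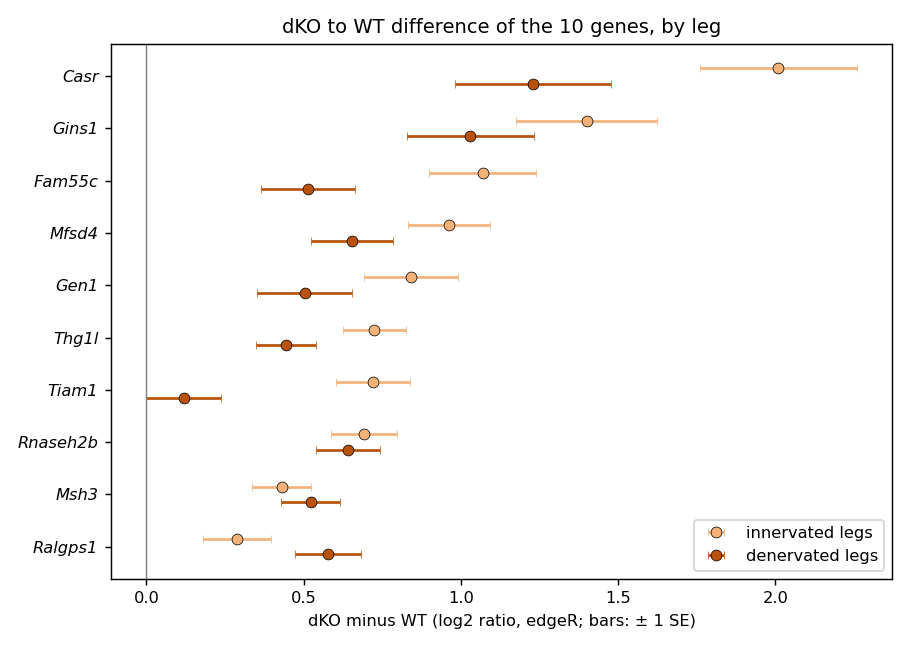
Log2 ratio of dKO to WT for each of the 10 genes in innervated (light) and denervated (dark) legs, ± 1 SE from edgeR. Casr has the widest ratios, at 2.01 and 1.23, the Rnaseh2b points lie at 0.69 and 0.64, and the denervated point of Tiam1 lies at 0.12; the values are descriptive because these contrasts chose the genes.

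Levels can be compared between genes only per length, for which the deposited normalized counts per kb were used. The gene lengths behind this signal were set by the authors. For Tiam1 and Rnaseh2b they are much shorter than the longest transcripts (7289 and 4983 bases), and for Fam55c close to it (6436 bases). The places below are therefore those of the deposited signal and are not read as an order of RNA levels. In WT innervated muscle the order was Tiam1 (mean 771 normalized counts per kb), Msh3 (529), Rnaseh2b (305), Thg1l (192), Ralgps1 (172), Mfsd4 (106), Casr (99.7), Gins1 (75.2), Gen1 (37.8) and Fam55c (9.88). Mfsd4 and Casr overlapped there, and the other neighbours in the order did not. In dKO innervated muscle Casr, at 401, stood in 4th place, overlapping Rnaseh2b at 492, and Ralgps1, Mfsd4 and Gins1 overlapped at 210, 205 and 199. In denervated muscle Thg1l took 1st place, at 543 in WT and 748 in dKO.

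After the group means were removed, the correlations between pairs of the 10 genes over 12 libraries ran from −0.647 to 0.805, with 22 of 45 pairs above 0 (median −0.00569). The highest values were those of Gins1 with Rnaseh2b (0.805) and of Tiam1 with Ralgps1 (0.706). On chromosome 16 lie 3 of them, Casr, Fam55c and Tiam1, and on chromosome 2 lie 2, Gins1 and Ralgps1. GC content of the longest transcript ran from 40.4% in Gen1 to 53.2% in Casr, with a median of 49.6% over tested genes. A near-identical copy in another gene, at 98% identity over 50% of a transcript, was found for 0 of the 10.

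The genes most like each of the 10 were sought by Pearson's correlation of log2 CPM over the 12 libraries among 11449 others with a mean of at least 1 CPM, leaving out predicted and clone-named genes. These correlations mix the genotype and leg differences that the libraries share and are descriptive. Casr and Mfsd4 had the same pair, Lactb2 (0.938 and 0.91) and Fer (0.924 and 0.91). Gins1 was most like Wars2, the mitochondrial tryptophan transfer RNA synthetase (0.961), and Rpl22l1 (0.96). Rnaseh2b was most like Ccdc90b (0.959) and, again, Wars2 (0.949). Gen1 paired with Tubd1 (0.975) and Setmar (0.951), and Thg1l with Nol12 (0.992) and Depdc7 (0.99). Tiam1 paired with Atp5k (0.965) and Klhl23 (0.961), and Msh3 with Cox7b (0.973) and D9Ertd402e (0.972), Atp5k and Cox7b being subunits of mitochondrial complexes. Fam55c was most like Pcna, the sliding clamp of replication (0.982), and Eri1 (0.982). Ralgps1 had the lowest values, with Serpinb1a (0.896) and Parp11 (0.871). Because the 10 genes were chosen as higher in dKO, this search favours genes that are also higher in dKO, and their differences between genotypes are not given.

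Markers of other cells gave 0 calls between genotypes in either leg by edgeR for macrophages (14 genes), satellite cells (10), endothelial cells (10), fibroblasts (10), Schwann cells (10), adipocytes (7) and fibres (13). Macrophage markers stood above 0 for 13 of 14 genes in each leg (median 0.204 and 0.103) and summed to 174 to 200 CPM in WT and 198 to 219 CPM in dKO innervated legs, and adipocyte markers for 6 of 7 (median 0.279 and 0.346). Endothelial markers stood above 0 for 0 of 10 (median −0.104 and −0.0606), at 740 to 815 against 653 to 754 CPM in innervated legs. The other medians in innervated and denervated legs were −0.00822 and 0.0012 for satellite cells, −0.0614 and 0.0471 for fibroblasts, 0.0197 and −0.0403 for Schwann cells and −0.125 and 0.0214 for fibres. The part of these cells in the levels of the 10 genes was not tested.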

How the data were processed

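Per the labels' protocols, libraries came from a stranded total RNA kit that removes ribosomal RNA. HTSeq 0.6.1, TopHat2 2.0.14, Bowtie, bcl2fastq 2.17.1.14 and the build mm9 are listed in the submitters' processing notes. The strand setting and annotation were not given in the sources used here. Raw read counts per gene, as deposited, were used for all tests. Per the file headers, the authors also give normalized counts and the same signal divided by gene length in kb. Compared here for genes with many counts, the normalized counts equal the raw counts times 1 factor per library. The log2 fold changes and p-values that the authors deposited were not used.

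Counts of 31057 genes were filtered by group (17201 kept, with 99.975% of counts), scaled by TMM and fitted with edgeR 4.0.16 and limma 3.58.1 under R 4.3.3, as 4 group means, which leaves 8 degrees of freedom. Quasi-likelihood tests were adjusted by Benjamini-Hochberg over all tested genes, with a threshold of 0.05. The 10 genes and the 18 lists were chosen with earlier results of these data known. Named genes are the 10, their neighbours, direct partners and paralogs fixed by name, called list genes and the 2 genes most like each. Of 308 list symbols, those absent from the table were left out. Positions, neighbours and overlaps are from GENCODE M21 (GRCm38, another build than mm9) and copies from BLAST 2.17.0. The scripts were tested on simulated data. Some genes are not reported here.

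Legs of equal genotype and replicate number deviated together (correlation of deviations over 12706 genes 0.197 to 0.508 for all 6 pairs, −0.389 to 0.0884 for different numbers). For the response to denervation they were therefore taken as pairs in the alternative with a block. For contrasts between genotypes the block was the replicate number, which joins WT and dKO animals that share only that number. Replicates are numbered in the labels without naming the animal behind each leg, and p-values measure the spread between these samples. Alternatives were RLE and upper-quartile scaling, no filter, DESeq2 1.42.0, the block, 2 libraries left out together and each library left out. The floor of 3 counts covers counting error only, and the 95% intervals from edgeR carry the spread between samples.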

Additional observations from a re-analysis of the deposited data

How the results depend on the processing

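The count of the 10 genes that responded to denervation was 9 or 10 in all 18 alternatives, and the 9 named in the report passed in each of them. With the replicate block the count was 10, the added gene being Ralgps1, and the block changed no other call among the 10. Over all genes, 9602 passed for denervation, 9060 to 9580 with 1 library left out and 9460 to 10329 in the other settings. The number called for dKO over WT in innervated legs was 79, and 240 without a filter, 264 with DESeq2, 50 without dKO_innervated 1 and WT_denervated 2 together, 82 with the replicate block and 27 to 113 with 1 library left out. In denervated legs it was 62, and 252 without a filter, 289 with DESeq2, 87 with the replicate block and 11 to 54 with 1 library left out. In these counts between genotypes the block is the replicate number and not the animal. The cause of these shifts was not tested. The count of neighbours called was 0 in both legs in all 18 alternatives. The log2 difference between genotypes kept its sign for all 10 genes in both legs and moved by less than 1 SD between replicates. Of the list genes called between genotypes, 3 in innervated and 1 in denervated legs, alternatives gave 0 to 5 and 0 to 3. Depth limits Gins1 and Gins2, with as few as 29 and 9 counts in a library.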
